A study of Mus musculus with 6 samples.

Results

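The genes described here are 10 genes of the acute-phase response of the colon epithelium to the cytokines IL-17 and IL-22: *Il22ra1*, *Stat3*, *Socs3*, *Nfkbiz*, *Pigr*, *Saa1*, *Saa2*, *Saa3*, *Steap4* and *Lcn2*. They were chosen by name for their place in this response, with earlier results of these data known. They make up 10 of the 52550 genes listed in the files, and all 10 were found. Their values came from the colon epithelium of 3 Zfp90fl/fl mice and 3 Zfp90ΔIEC mice, each mouse being a separate sample. In the Zfp90ΔIEC mice a Cre recombinase driven by the Villin promoter removes the 3′ end of *Zfp90*, a zinc finger gene, from intestinal epithelial cells, and their Zfp90fl/fl littermates carry the floxed gene without Cre. Animals of both groups were male C57BL/6 mice, 6 to 8 weeks old per the labels, and no untreated mice were analysed here. All received 10 mg/kg of the carcinogen azoxymethane (AOM), and 5 days later the first of 3 cycles of dextran sulfate sodium (DSS), a compound that injures the colon, which per the labels was given at 2% in the drinking water for 7 days and was followed by 14 days of water. The methods of the study give a somewhat higher concentration of DSS and the upper of these ages. The epithelium was taken on day 80. The mice were housed by genotype after weaning, and an effect of cage cannot be told apart from one of genotype.

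IL-17 and IL-22 are made mainly by T cells and innate lymphocytes of the gut wall and act on the epithelium. IL-17 binds a receptor of the subunits IL17RA and IL17RC, which works through the adaptor Act1, NF-κB, C/EBP factors and IκBζ, while IL-22 binds a receptor of IL22RA1 and IL10RB, which works through the kinases JAK1 and TYK2 and the transcription factor STAT3. Together they make epithelial cells produce antimicrobial and acute-phase proteins, carry IgA into the lumen and draw in neutrophils.

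Promoters are printed for 5 of the genes, the 3 serum amyloid A genes, because *Saa1* and *Saa2* are near copies whose reads may be shared while *Saa3* is not, and *Socs3* and *Steap4*, which hold a STAT-like match. Each sequence is from RefSeq on build GRCm38.p6, runs 5′ to 3′ on the strand of the gene, covers 250 bases before to 50 bases after an annotated start, and has in capitals the matches to the motifs TTCNNNGAA (STAT-like) and TTGCNNAA (C/EBP-like), both searched on both strands. *Saa1* is at chr7:46742931-46743230 on the minus strand, *Saa2* at chr7:46751583-46751882 on the plus strand, *Saa3* at chr7:46715627-46715926 on the minus strand, *Socs3* at chr11:117969317-117969616 on the minus strand and *Steap4* at chr5:7960222-7960521 on the plus strand.
Saa1: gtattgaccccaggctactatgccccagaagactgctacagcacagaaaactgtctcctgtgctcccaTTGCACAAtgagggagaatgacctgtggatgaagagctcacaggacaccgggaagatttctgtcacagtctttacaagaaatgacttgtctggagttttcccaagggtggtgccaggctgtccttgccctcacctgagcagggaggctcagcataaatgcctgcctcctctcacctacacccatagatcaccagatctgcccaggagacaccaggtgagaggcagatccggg
Saa2: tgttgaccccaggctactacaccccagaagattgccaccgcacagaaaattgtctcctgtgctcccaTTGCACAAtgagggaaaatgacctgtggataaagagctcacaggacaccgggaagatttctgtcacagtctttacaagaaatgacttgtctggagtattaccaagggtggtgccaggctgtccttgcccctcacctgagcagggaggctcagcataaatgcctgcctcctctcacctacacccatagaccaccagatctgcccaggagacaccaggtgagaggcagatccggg
Saa3: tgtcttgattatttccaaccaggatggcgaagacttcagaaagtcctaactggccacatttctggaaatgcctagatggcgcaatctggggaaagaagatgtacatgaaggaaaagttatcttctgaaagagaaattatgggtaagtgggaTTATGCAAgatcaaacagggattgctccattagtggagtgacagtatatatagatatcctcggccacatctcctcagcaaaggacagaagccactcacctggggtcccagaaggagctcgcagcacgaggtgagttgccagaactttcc
Socs3: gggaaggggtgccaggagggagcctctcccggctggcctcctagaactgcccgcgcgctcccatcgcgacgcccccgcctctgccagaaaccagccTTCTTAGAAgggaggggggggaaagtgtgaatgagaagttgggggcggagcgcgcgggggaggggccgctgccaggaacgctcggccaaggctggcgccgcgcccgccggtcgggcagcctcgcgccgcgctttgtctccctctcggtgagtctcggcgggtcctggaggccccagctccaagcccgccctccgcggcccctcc
Steap4: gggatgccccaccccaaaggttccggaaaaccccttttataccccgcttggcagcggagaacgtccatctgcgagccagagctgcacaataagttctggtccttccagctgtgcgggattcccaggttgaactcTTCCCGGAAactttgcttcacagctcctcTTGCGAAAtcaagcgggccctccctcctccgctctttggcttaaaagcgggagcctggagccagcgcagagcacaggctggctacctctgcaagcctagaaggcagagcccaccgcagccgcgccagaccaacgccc

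The promoters of *Saa1* and *Saa2* were identical at 287 of 301 aligned positions (95.3%), against 54.1% for *Saa1* and *Saa3*. RefSeq gave a promoter for 9 of the 10 genes, all but *Nfkbiz*. The C/EBP-like motif was found in 5 of the 9, at 182 bases before the start in *Saa1*, 183 in *Saa2*, 99 in *Saa3*, 216 in *Lcn2* and 87 in *Steap4*. It was present in 10.8% of all 32851 promoters of this length. The STAT-like motif was found in *Socs3*, 154 bases before the start, in *Steap4*, 116 bases before, and in *Pigr*, 39 bases after, and it was present in 8.30% of all promoters. An NF-κB-like motif, GGGA and TTCC with any 2 bases between them, searched the same way, was found in *Il22ra1* at 156 bases before the start and in 1.47% of all promoters. No match overlapped another. A match gives the letters of a window and was not tested as a binding site.

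Expression was measured by RNA sequencing and deposited as FPKM, the fragments per kilobase of transcript, scaled to the mapped fragments of the sample. Depth is not stated in the sources used here, and the steps between low values gave an estimate of 25.7 to 28.6 M fragments per sample. *Zfp90* had 0.630, 0.490 and 0.569 FPKM in Zfp90fl/fl replicates 1, 2 and 3 against 0.0846, 0.195 and 0.166 FPKM in the Zfp90ΔIEC replicates, so that the deleted gene was lower in every Zfp90ΔIEC mouse without overlap (adjusted p = 0.123 from limma without the filter described next). The genotypes were compared with limma on log2(FPKM + 1) in the 11564 genes that reached 1 FPKM in 3 or more samples, with Benjamini-Hochberg adjustment over all of them and a threshold of an adjusted p under 0.05. A difference below is that of log2(FPKM + 1), Zfp90ΔIEC minus Zfp90fl/fl, and it understates the ratio of a gene near or under 1 FPKM. In all, 23 of the genes tested (0.199%) passed, 15 lower (0.13%) and 8 higher (0.0692%) in the Zfp90ΔIEC mice.

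Of the 10 genes, 9 had a lower mean in the Zfp90ΔIEC mice, and 1 of the 8 that could be tested, *Steap4*, fell past the threshold. The groups did not overlap in 8 genes with lower values and in *Saa2* with higher values, and they overlapped in *Saa1*. Among these, *Saa2* and *Lcn2*, 1 of the 8, rest on few fragments, so that little separates their genotypes. Of the 27805 genes fitted without the filter on low values, 8.88% lay lower without overlap and 5.99% higher. *Saa3* and *Steap4* passed the filter through the Zfp90fl/fl mice alone, so they had to differ to be tested at all. Of the other 6 genes tested, 0 were past the threshold in limma, 5 had an unadjusted p under 0.05 and were lower, as 8.09% of all genes tested were, and 5 lay lower without overlap, as 12.6% did. Their median difference was -0.48, against -0.02 over all genes tested. In bulk tissue, fewer cells that express a gene and less RNA per cell cannot be told apart.

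**Figure D1:**
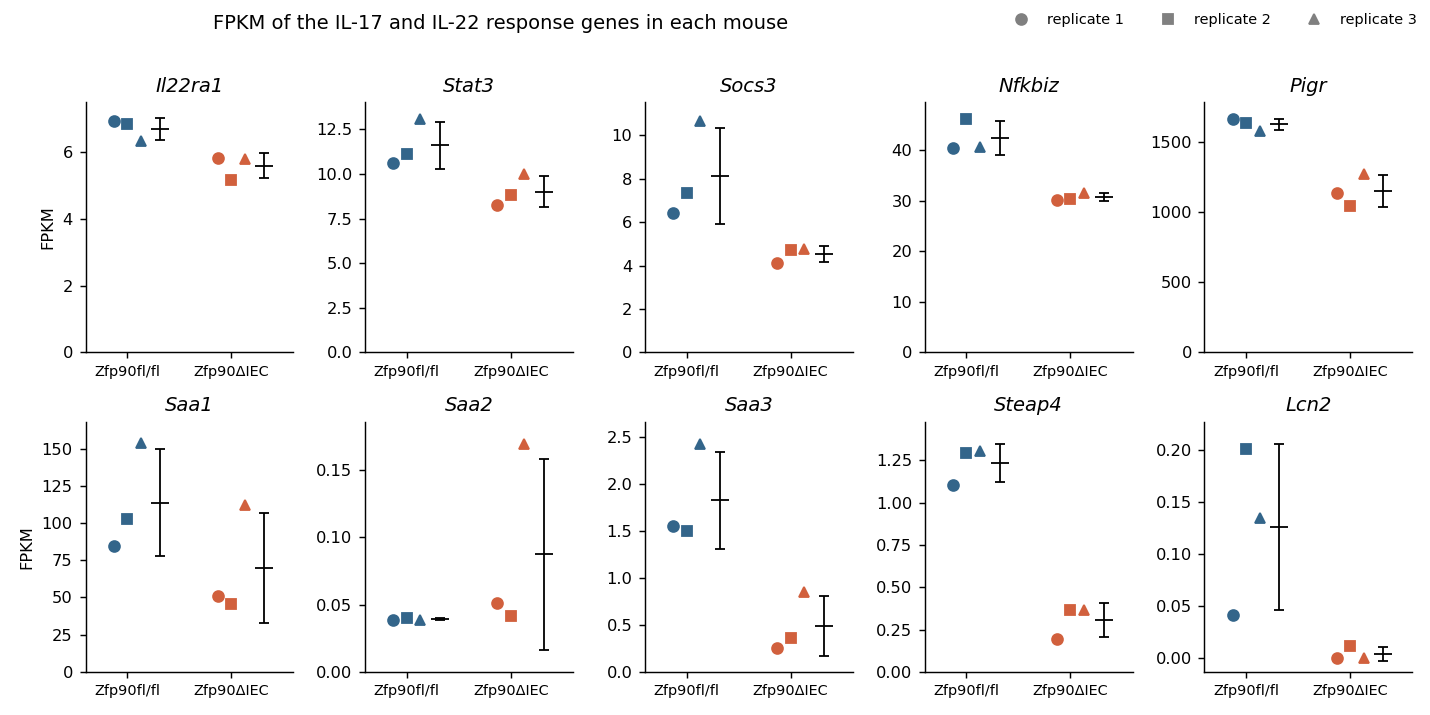
FPKM of the 10 genes in each mouse, 1 panel a gene on its own linear axis. Blue points are the 3 Zfp90fl/fl mice and orange points the 3 Zfp90ΔIEC mice, the symbol gives the replicate number, and the bar is the mean with its SD. Orange points lie under all blue points in 8 panels, above them in that of *Saa2*, and among them in that of *Saa1*, where Zfp90ΔIEC replicate 3 stands at 112 FPKM. The panels of *Saa2* and *Lcn2* rest on few fragments.

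*Il22ra1* (ENSMUSG00000037157, chr4:135728172-135752140 on the plus strand of GRCm38) encodes the receptor chain that binds IL-22. It was at 6.94, 6.85 and 6.32 FPKM in Zfp90fl/fl replicates 1, 2 and 3 against 5.82, 5.16 and 5.80 FPKM in Zfp90ΔIEC replicates 1, 2 and 3. The 3 Zfp90ΔIEC mice lay just below the lowest Zfp90fl/fl mouse. The means were 6.70 ± 0.335 and 5.60 ± 0.375 FPKM (SD, n = 3 each), the smallest difference of the genes tested here, at -0.22 (standard error 0.0682, adjusted p = 0.210 from limma).

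*Stat3* (ENSMUSG00000004040, chr11:100885098-100939540, minus strand) encodes the transcription factor that is activated below the IL-22 receptor and below IL-6 family receptors. It was at 10.6, 11.1 and 13.1 FPKM in Zfp90fl/fl replicates 1, 2 and 3 against 8.25, 8.81 and 9.99 FPKM in Zfp90ΔIEC replicates 1, 2 and 3. The highest Zfp90ΔIEC mouse came close to the lowest Zfp90fl/fl mouse without reaching it, and replicate 3 was the highest mouse of each genotype. The difference was -0.33 (standard error 0.0978) and did not pass (adjusted p = 0.205 from limma). On the opposite strand it overlaps *Stat5a*, which was at means of 1.62 and 1.49 FPKM in the Zfp90fl/fl and Zfp90ΔIEC mice. The libraries were strand-specific, and whether the counting used the strand is not given in the sources used here.

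*Socs3* (ENSMUSG00000053113, chr11:117966079-117970047, minus strand) encodes a feedback inhibitor that STAT3 induces and that blocks the receptor's kinases. Zfp90fl/fl replicates 1, 2 and 3 had 6.42, 7.35 and 10.6 FPKM, and Zfp90ΔIEC replicates 1, 2 and 3 had 4.11, 4.73 and 4.76 FPKM. The Zfp90ΔIEC mice stood close together below the widely spread Zfp90fl/fl mice. Its mean was 8.14 ± 2.22 FPKM (SD, n = 3) against 4.54 ± 0.366 FPKM (SD, n = 3), 1.79-fold lower in the Zfp90ΔIEC mice, and its difference of -0.70 (standard error 0.162) did not pass the threshold (adjusted p = 0.131 from limma).

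*Nfkbiz* (ENSMUSG00000035356, chr16:55811375-55838899, minus strand) encodes IκBζ, a nuclear cofactor of NF-κB that IL-17 induces and that many IL-17 targets need. It was at 40.3, 46.2 and 40.5 FPKM in Zfp90fl/fl replicates 1, 2 and 3 against 30.1, 30.3 and 31.5 FPKM in Zfp90ΔIEC replicates 1, 2 and 3. The gap between the genotypes was wider than the whole range within either. The means of 42.4 ± 3.36 and 30.6 ± 0.782 FPKM (SD, n = 3 each) differed by -0.45 (standard error 0.0687), with an adjusted p of 0.0664 from limma, above the threshold.

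*Pigr* (ENSMUSG00000026417, chr1:130826684-130852249, plus strand) encodes the polymeric immunoglobulin receptor, which carries IgA across the epithelium, and was by far the most abundant of the 10 genes. Zfp90fl/fl replicates 1, 2 and 3 had 1661, 1633 and 1582 FPKM, and Zfp90ΔIEC replicates 1, 2 and 3 had 1138, 1045 and 1274 FPKM. No Zfp90ΔIEC mouse reached the Zfp90fl/fl range. The mean was 1625 ± 40.1 FPKM (SD, n = 3) against 1152 ± 115 FPKM (SD, n = 3), 1.41-fold lower in the Zfp90ΔIEC mice, a difference of -0.50 (standard error 0.0808) that did not pass (adjusted p = 0.0690 from limma).

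The serum amyloid A genes encode small apolipoproteins of the acute phase, of which *Saa1* and *Saa2* are made in liver and gut and *Saa3* in many tissues. *Saa1* (ENSMUSG00000074115, chr7:46740497-46742980, minus strand) was at 84.6, 103 and 154 FPKM in Zfp90fl/fl replicates 1, 2 and 3 against 51.2, 45.5 and 112 FPKM in Zfp90ΔIEC replicates 1, 2 and 3. Replicate 3 was the highest in both genotypes, and its Zfp90ΔIEC mouse lay above 2 of the Zfp90fl/fl mice. The means of 114 ± 36.0 and 69.6 ± 37.0 FPKM (SD, n = 3 each) differed by -0.78 (standard error 0.364, adjusted p = 0.392 from limma), with a 95% interval from -1.64 to 0.09. Without Zfp90ΔIEC replicate 3 the difference was -1.18, also short of the threshold (adjusted p = 0.157 from limma). That fit gave the largest fall of those that each left out 1 mouse. Across them the difference ran from -1.18 to -0.53 (adjusted p from 0.157 to 0.634 in limma), and it was smallest without Zfp90ΔIEC replicate 2.

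*Saa2* (ENSMUSG00000057465, chr7:46751790-46754313, plus strand) was barely detected and was the only one of the 10 genes with a higher mean in the Zfp90ΔIEC mice. It was at 0.0388, 0.0399 and 0.0386 FPKM in Zfp90fl/fl replicates 1, 2 and 3 against 0.0508, 0.0416 and 0.169 FPKM in Zfp90ΔIEC replicates 1, 2 and 3. Zfp90ΔIEC replicate 3, the mouse that was high in *Saa1*, stood far above the other 5. By the length of its longest transcript these values come to at most 2.43 to 2.74 estimated fragments in the Zfp90fl/fl mice. In Zfp90ΔIEC replicates 1, 2 and 3 they come to at most 3.38, 2.91 and 11.5. Without the filter, below which it lay, the difference was 0.06 (standard error 0.0461, adjusted p = 0.742 from limma), and it was 0.0098 when Zfp90ΔIEC replicate 3 was left out as well. The longest protein-coding transcripts of *Saa1* and *Saa2* in GENCODE were 609 and 652 bases long and 87.3% identical, and 26.8% of the 31-base words of *Saa1* also occur in *Saa2*, so that reads may be divided between them. The summed FPKM of both genes, nearly all of it *Saa1*, differed by -0.77 (standard error 0.364, adjusted p = 0.393 from limma). It follows *Saa1* and cannot show how reads were divided.

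*Saa3* (ENSMUSG00000040026, chr7:46711998-46715700, minus strand) had the largest difference of log2(FPKM + 1) among the 10 genes with all 6 mice in the fit. Without Zfp90ΔIEC replicate 3 its difference of -1.10 was smaller in size than that of *Saa1*, and by the ratio of means *Steap4* was lower still. It was at 1.55, 1.49 and 2.42 FPKM in Zfp90fl/fl replicates 1, 2 and 3 against 0.249, 0.360 and 0.848 FPKM in Zfp90ΔIEC replicates 1, 2 and 3. The genotypes lay well apart, and replicate 3 was again the highest in both. The mean was 3.75-fold lower in the Zfp90ΔIEC mice, at 0.486 ± 0.319 against 1.82 ± 0.517 FPKM (SD, n = 3 each), and the difference of -0.93 (standard error 0.184) did not pass (adjusted p = 0.0995 from limma). None of the 31-base words of its longest protein-coding transcript occurs in *Saa1* or *Saa2*, while 4.84% of those of *Saa1* occur in another transcript of *Saa3*.

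*Steap4* (ENSMUSG00000012428, chr5:7960457-7982213, plus strand) encodes a metalloreductase of the cell membrane that reduces iron and copper and is induced by IL-17. Zfp90fl/fl replicates 1, 2 and 3 had 1.10, 1.29 and 1.31 FPKM, and Zfp90ΔIEC replicates 1, 2 and 3 had 0.192, 0.365 and 0.363 FPKM. Every Zfp90fl/fl mouse was above 1 FPKM and every Zfp90ΔIEC mouse far below it. *Steap4* fell 4.03-fold, from 1.23 ± 0.115 to 0.306 ± 0.0994 FPKM (SD, n = 3 each), a difference of -0.78 (standard error 0.0932, adjusted p = 0.0434 from limma), lower in 3 of 3 mice. It was past the threshold in none of the fits that each left out 1 of the 6 mice (adjusted p from 0.0641 to 0.153 in limma) and not without the filter (adjusted p = 0.105 from limma), where 0.0539% of the genes fitted passed. Its FPKM comes to at most 89.3 to 116 estimated fragments in the Zfp90fl/fl mice and 16.5 to 33.0 in the Zfp90ΔIEC mice.

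*Lcn2* (ENSMUSG00000026822, chr2:32384633-32388252, minus strand) encodes lipocalin 2, which binds bacterial siderophores and is made by epithelial cells and by neutrophils. It was at 0.0416, 0.201 and 0.135 FPKM in Zfp90fl/fl replicates 1, 2 and 3, and in Zfp90ΔIEC replicates 1, 2 and 3 it was listed at 0, 0.0113 and 0 FPKM. It was lower in each Zfp90ΔIEC mouse than in any Zfp90fl/fl mouse, but the Zfp90fl/fl values come to at most 1.47, 7.74 and 5.21 estimated fragments and the highest Zfp90ΔIEC value to less than 1. Without the filter the difference was -0.16 (standard error 0.0513, adjusted p = 0.371 from limma).

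**Figure D2:**
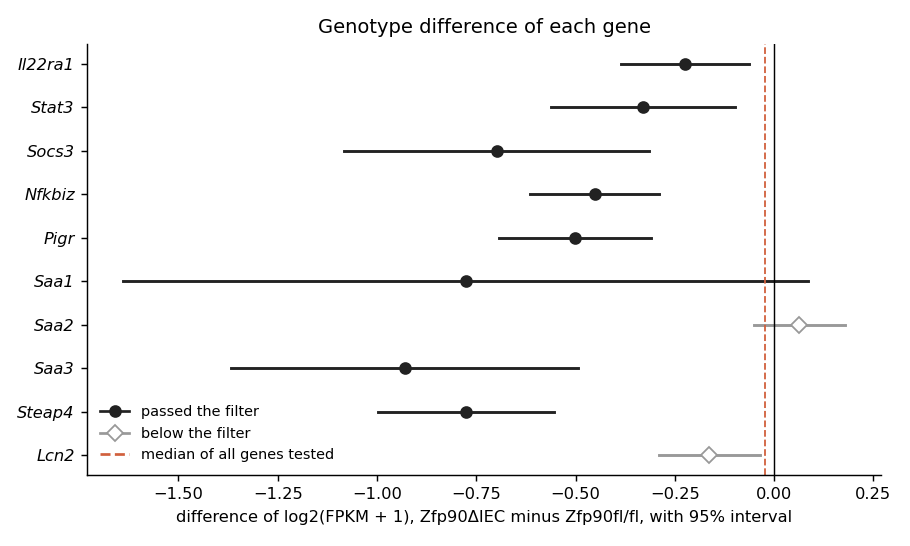
Difference of log2(FPKM + 1), Zfp90ΔIEC minus Zfp90fl/fl, for each gene, with its 95% interval from limma. Filled circles are the 8 genes that passed the filter, open diamonds are *Saa2* and *Lcn2*, which lay below it, and the dashed line is the median of all genes tested, -0.02. The interval of *Saa1* runs from -1.64 to 0.09 and is the only one of the filled circles to reach 0.

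By level, in FPKM, which is per length of transcript, the order of means in the Zfp90fl/fl mice was *Pigr*, *Saa1*, *Nfkbiz*, *Stat3*, *Socs3*, *Il22ra1*, *Saa3*, *Steap4*, *Lcn2* and *Saa2*. The samples of neighbours in this order overlapped for *Stat3* and *Socs3* and for *Socs3* and *Il22ra1*. In the Zfp90ΔIEC mice *Il22ra1* stood above *Socs3* and *Saa2* above *Lcn2*, and only *Saa3* and *Steap4* overlapped as neighbours. Replicate 3 was the highest mouse in both genotypes for 4 genes, *Saa1*, *Saa3*, *Socs3* and *Stat3*, as it was for 9.29% of all genes tested. Over the 6 samples, which include the genotype difference, the 8 genes tested correlated in pairs with a Pearson's r of log2(FPKM + 1) from 0.58 for *Saa1* and *Il22ra1* to 0.98 for *Saa3* and *Stat3*. The genes most like *Saa3* over the 6 samples were *Rad52* (r = 0.999), *Ptk6* (r = 0.990), *4933434E20Rik* (r = 0.990), *Fbxw17* (r = 0.990) and *Arhgdib* (r = 0.989). None of these 5 passed the threshold (adjusted p from 0.110 to 0.424 in limma). They are the highest r picked from all genes tested, over 6 samples that include the genotype difference, so a high r carries no separate support. *Arhgdib*, like *Saa3*, reached 1 FPKM in the Zfp90fl/fl mice alone.

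The other genes of the pathway were taken from 6 lists with 133 genes, of which 74 passed the filter, 5 fell past the threshold in limma and 0 rose. Of these 5, *Il1b* and *Nos2* reached 1 FPKM in the Zfp90fl/fl mice alone, so they had to differ to be tested, and the other 3, *Reg3b*, *Reg3g* and *Duox2*, passed the filter in both genotypes. Over all genes tested, 0.13% passed as lower, and 7 of the 23 genes past the threshold had likewise passed the filter through the Zfp90fl/fl mice alone. Of the 74, 55 had a difference below 0, against 57.2% of all genes tested, and 30 lay lower without overlap, against 12.6%. Both counts include 4 genes, *Il1b*, *Nos2*, *Mmp7* and *Slpi*, that reached 1 FPKM in the Zfp90fl/fl mice alone. For these the filter itself fixed that the genotypes did not overlap. Of all 11564 genes tested, 40 had passed the filter in this way. The median of the 74 was -0.10.

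The ligands and the cytokines that induce them were mostly below the filter: 2 of 15 passed it and 5 were listed at 0 in all samples. *Il1b*, which encodes interleukin 1β, fell from 3.65 ± 0.551 to 0.415 ± 0.187 FPKM (SD, n = 3 each; adjusted p = 0.00823 from limma), with all 3 Zfp90ΔIEC mice under the filter. *Tnf*, which encodes tumour necrosis factor, was at 11.7 ± 0.536 and 12.8 ± 2.01 FPKM (SD, n = 3 each; adjusted p = 0.687 from limma). The genes of the ligands themselves were named after their values were seen. *Il17a*, under 1 FPKM in every mouse, was at 0.628, 0.826 and 0.787 FPKM in the Zfp90fl/fl mice and at 0.0939, 0.0894 and 0 FPKM in the Zfp90ΔIEC mice. Its adjusted p was 0.0589 from limma without the filter. *Il17c* overlapped between the genotypes, at means of 1.03 and 0.810 FPKM (adjusted p = 0.697 from the same fit). So did *Il17d*, at means of 0.216 and 0.214 FPKM, and *Il17f*, at 0.0389 and 0.0118 FPKM. *Il22* was listed at 0 FPKM in 4 of the 6 samples and reached 0.111 FPKM in Zfp90fl/fl replicate 3. At this level no difference in *Il22* was detectable.

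Of 12 receptor subunits 6 passed the filter, with a median of -0.04, and 0 passed the threshold. Lower without overlap lay 3 of the 6, against 12.6% of all genes tested. An unadjusted p under 0.05 in limma with a lower level was found in 2, against 8.09% of all genes tested. *Il17rc*, a chain of the IL-17 receptor, was at 28.5 ± 1.65 and 30.2 ± 2.55 FPKM (SD, n = 3 each; adjusted p = 0.709 from limma), and *Il10rb*, the second chain of the IL-22 receptor, was at 14.6 ± 0.924 and 14.5 ± 0.952 FPKM (SD, n = 3 each; adjusted p = 0.934). The largest differences of this list were those of *Il6st*, the shared chain of the IL-6 family receptors (-0.28, adjusted p = 0.206 from limma), and *Il17re*, the receptor chain for IL-17C (-0.27, adjusted p = 0.176). *Il22ra1* and the 6 other receptor subunits tested thus all lay short of the threshold.

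Among the JAK-STAT factors and their inhibitors 13 of 14 passed the filter, with a median of -0.06, and 0 passed the threshold in limma. There 1 had an unadjusted p under 0.05 and was lower, as 8.09% of all genes tested were, and 2 lay lower without overlap, as 12.6% did. The kinases *Jak1* and *Jak2*, the most abundant of the list, had differences of -0.04 and 0.04 (adjusted p = 0.795 and 0.798 from limma). *Socs2*, an inhibitor of the family of *Socs3*, had a difference of 0.20 (adjusted p = 0.477 from limma), opposite in sign to that of *Socs3*.

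Among the adaptors, NF-κB and C/EBP factors and their inhibitors 26 of 28 passed the filter, with a median of -0.09. None passed the threshold in limma, and 6 had an unadjusted p under 0.05 and were lower, as 8.09% of all genes tested were. Lower without overlap lay 8 of the 26, against 12.6% of all genes tested. *Zc3h12a*, which encodes Regnase-1, an RNase that degrades inflammatory transcripts, was at 38.3 ± 3.71 and 21.8 ± 3.51 FPKM without overlap (SD, n = 3 each), a difference of -0.79 (adjusted p = 0.0664 from limma). *Nfkbia*, the NF-κB inhibitor IκBα and the most abundant of the list, had a difference of 0.14 (adjusted p = 0.539 from limma), and *Srsf1*, a splicing factor, one of -0.30 (adjusted p = 0.344).

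The other epithelial targets held most of the pathway genes that passed. Of 39 genes, 25 passed the filter, 4 fell past the threshold, 14 lay lower without overlap, and the median was -0.48. Over all genes tested, 0.13% passed as lower and 12.6% lay lower without overlap. *Reg3b* and *Reg3g*, lectins that act on bacteria, fell from 1172 ± 674 to 41.3 ± 19.1 FPKM and from 165 ± 79.4 to 10.7 ± 4.61 FPKM (SD, n = 3 each; adjusted p = 0.0434 from limma for both). *Duox2*, an oxidase that makes hydrogen peroxide at the epithelial surface, fell from 26.4 ± 4.05 to 9.60 ± 0.935 FPKM (SD, n = 3 each; adjusted p = 0.0137), and *Nos2*, the inducible nitric oxide synthase, from 1.76 ± 0.345 to 0.300 ± 0.131 FPKM (SD, n = 3 each; adjusted p = 0.0434). *Nos2* was tested through its Zfp90fl/fl level alone, as were 2 of the other genes counted here, *Mmp7* and *Slpi*, neither of which passed the threshold. *Reg4*, a lectin of secretory cells, was at 229.6 ± 18.9 and 274 ± 33.6 FPKM (SD, n = 3 each; adjusted p = 0.340 from limma), a difference of the other sign from its relatives. *Reg3b* and *Reg3g* are close relatives and may share reads.

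Of the other 25 acute-phase proteins, which are made mainly by the liver, 2 passed the filter and 7 were listed at 0 in all samples. *C3*, the central complement component, was at 2.15 ± 0.457 and 0.741 ± 0.404 FPKM (SD, n = 3 each; adjusted p = 0.121 from limma), and *Cfb*, complement factor B, was at 38.3 ± 1.35 and 30.5 ± 2.90 FPKM (SD, n = 3 each; adjusted p = 0.135). Both lay lower without overlap, as 12.6% of all genes tested did, and neither passed the threshold.

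**Figure D3:**
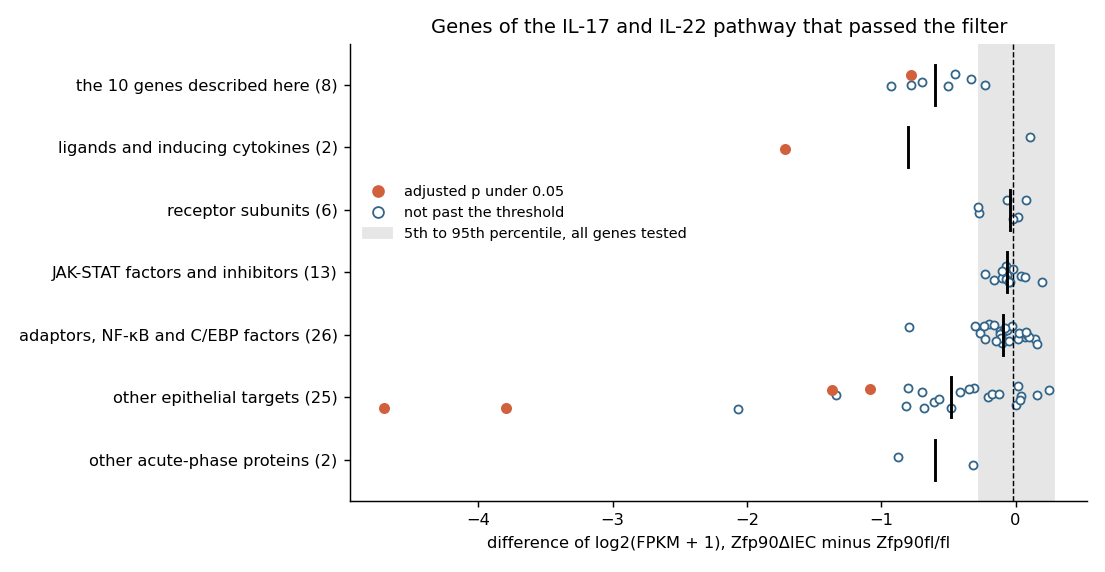
Difference of log2(FPKM + 1), Zfp90ΔIEC minus Zfp90fl/fl, of the pathway genes that passed the filter, 1 point a gene, 1 row a list, with the number of genes in brackets. Filled orange points have an adjusted p under 0.05 in limma, open points do not, the black bar is the median of the list, the dashed line the median of all genes tested and the grey band their 5th to 95th percentile. The orange points are *Steap4* in the first row, *Il1b* among the ligands, and *Reg3b*, *Reg3g*, *Duox2* and *Nos2* among the other epithelial targets.

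The markers of the colon epithelium were high in every sample, with a summed level of 6452 to 7268 FPKM in the Zfp90fl/fl mice and 7007 to 7091 FPKM in the Zfp90ΔIEC mice. Most of this sum was the keratins *Krt8*, at means of 2897 and 2823 FPKM, and *Krt19*, at 1765 and 1620 FPKM. Of the 10 epithelial markers 5 had a lower and 5 a higher mean in the Zfp90ΔIEC mice. Of all genes tested 8.73% lay higher without overlap, and 3 of the markers did. These were the chloride exchanger *Slc26a3* (80.9 ± 7.82 against 116 ± 10.9 FPKM, SD, n = 3 each; adjusted p = 0.0873 from limma), the goblet cell mucin *Muc2* (439 ± 6.67 against 689 ± 285 FPKM; adjusted p = 0.368) and the keratin *Krt18* (302 ± 12.5 against 348 ± 21.7 FPKM; adjusted p = 0.240). Many leukocyte markers were lower. Of the genes fitted without the filter, 8.88% lay lower without overlap. Of 12 neutrophil markers 8 had a lower and 3 a higher mean in the Zfp90ΔIEC mice, and 5 lay lower without overlap. *Csf3r*, at means of 0.267 and 0.0060 FPKM, and *Itgam*, at 0.960 and 0.154 FPKM, lay below the filter. Both fell past the threshold in limma without it (adjusted p = 0.0177 and 0.0199), where 0.0539% of the genes fitted passed. They were named after their values were seen. The sum of the 12 markers was 26.5 to 48.3 FPKM against 22.0 to 33.3 FPKM. Most of it was *Ly6g*, without which, as a choice made after its value was seen, it was 2.52 to 3.54 FPKM against 0.182 to 0.334 FPKM, and *Ly6g* itself overlapped, at means of 31.1 and 26.8 FPKM. The markers *S100a8*, *S100a9*, *Cxcr2* and *Retnlg* were listed at 0 in all Zfp90ΔIEC mice, *Elane* and *Camp* at 0 in all Zfp90fl/fl mice and *Ngp* in both, while *Mpo* was at or near 0 in every mouse. All 12 macrophage and monocyte markers had a lower mean in the Zfp90ΔIEC mice, 8 lay lower without overlap, and 4 passed the filter. Their sums were 32.9 to 38.2 FPKM against 17.6 to 20.0 FPKM. Most of this was *Cd14*, the endotoxin coreceptor, which fell past the threshold, at means of 26.3 and 14.2 FPKM (adjusted p = 0.0219 from limma). Without *Cd14*, as a choice made after values were seen, the sums were 8.17 to 10.8 FPKM against 3.34 to 4.74 FPKM. All 8 T cell markers had a lower mean, with sums of 2.97 to 5.15 FPKM against 2.45 to 3.33 FPKM, and 2 lay lower without overlap. B and plasma cell markers summed to 0.673 to 0.989 FPKM against 0.123 to 0.263 FPKM, those of fibroblasts to 0.221 to 0.409 FPKM against 0.120 to 0.702 FPKM, and those of endothelium to 0.347 to 0.488 FPKM against 0.518 to 0.603 FPKM. The part of leukocyte RNA in the differences of *Lcn2*, *Saa3*, *Steap4* and the other genes was not tested, nor was that of the epithelial markers that were higher.

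**Figure D4:**
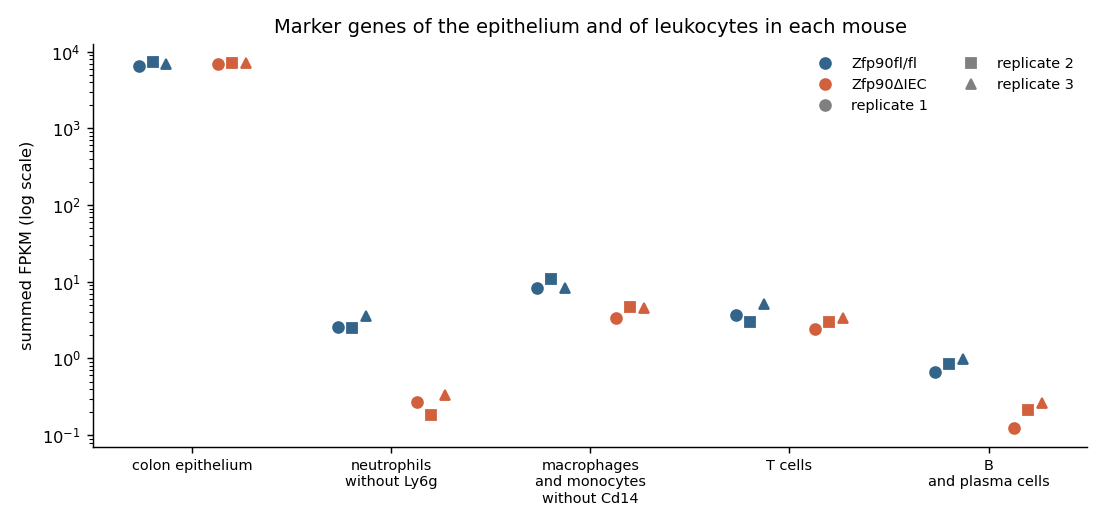
Summed FPKM, on a log axis, of marker genes of the colon epithelium and of leukocytes in each mouse, Zfp90fl/fl in blue and Zfp90ΔIEC in orange, with the symbol giving the replicate number. The epithelial sum lies between 6452 and 7268 FPKM in all 6 mice, while the sums of neutrophils without *Ly6g*, of macrophages and monocytes without *Cd14* and of B and plasma cells lie lower in the 3 Zfp90ΔIEC mice without overlap. *Ly6g* and *Cd14*, the most abundant of their lists, were left out after values were seen. Most of the epithelial sum is *Krt8* and *Krt19*, which were kept.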

How the data were processed

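The authors sequenced RNA of isolated colon epithelium and deposited 1 file per sample with an FPKM for each Ensembl gene, a unit scaled for transcript length and depth. The methods name TopHat and Cuffdiff with a human genome, whereas the submitters' processing notes list FastQC, STAR 2.5, Cuffnorm, DESeq 1.22.1 and mm9, so which tools made the deposited FPKM was not settled. The files hold mouse identifiers, and 52403 of 52550 matched a symbol in GENCODE (GRCm38), whose coordinates are given.

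Samples were grouped by their titles, since the genotype field of 2 Zfp90ΔIEC samples names another gene number. From the deposited FPKM, log2(FPKM + 1) was tested with limma 3.58.1 (R 4.3.3, empirical Bayes with trend, two-sided, no covariates, Benjamini-Hochberg adjustment). Cuffdiff needs reads and was not run. Genes below the filter take their statistics from the same fit without it. Depth was estimated from genes with 1 transcript, where 67.9% to 75.6% of the values examined lay within 0.1 of a whole number of fragments, so counts were not recovered and estimated fragments are approximate. Values were joined in Python 3.11.15 with numpy 2.4.6 and pandas 2.3.3 and plotted with matplotlib 3.10.9, and the test was tried on simulated data.

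The 10 genes, the pathway and marker lists and the tests were chosen with earlier results of these data known. Named pathway genes are those past the threshold and, in each list among genes that passed the filter, the 2 of highest mean and the 2 of largest difference. The result of a gene under this rule and that of a marker list are not reported here. The genes most like *Saa3*, the one of largest difference, are the 5 of highest correlation. Alternatives were leaving out each mouse, the replicate number as a block, a stricter threshold, median ratio scaling, quantile normalization, no filter, a pseudocount of 0.1 and, added after values were seen, a filter at 0.1 FPKM.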

Additional observations from a re-analysis of the deposited data

How the results depend on the processing

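No difference reversed under the 12 alternatives run for each of the 8 genes tested, or under the 7 run for *Saa2* and *Lcn2*, which were the replicate block and each mouse left out. *Steap4* was past the threshold with quantile normalization, median ratio scaling and the filter at 0.1 FPKM, and lost it with a pseudocount of 0.1 (difference -1.74), without the filter (-0.78), with the replicate block (-0.78, adjusted p = 0.0504 from limma) and with each mouse left out (-0.82 to -0.71). *Saa3* was past it only with the replicate block (-0.93, adjusted p = 0.0403 from limma). The number of the 10 genes past the threshold was 0 with a pseudocount of 0.1, without the filter, with each mouse left out (0 to 0) and with an adjusted p under 0.01 and a difference over 1. With the replicate block it was 1, *Saa3* in place of *Steap4*. Of all genes, 13 passed with a pseudocount of 0.1, 15 without the filter, 47 with the replicate block, 6 under the stricter threshold and 10 to 21 with a mouse left out, lowest without Zfp90fl/fl replicate 2. Of the other pathway genes, 2 passed with a pseudocount of 0.1, 1 without the filter, 1 under the stricter threshold, and 1 to 4 with a mouse left out, with 1 without Zfp90fl/fl replicate 2, 3 without Zfp90fl/fl replicate 3 and 2 without Zfp90ΔIEC replicate 1. The causes were not tested. Deviations from the group mean correlated at 0.19, 0.11 and 0.0782 between mice of equal number. Between mice of unequal number the correlations were at -0.128 to 0.0137. Deviations within a group sum to 0, so positive values between mice of equal number push these down. That they are lower is thus no separate result. The main fit used no pairing, and what mice of equal number may share was not tested. *Lcn2*, *Saa2* and *Il22* rest on few fragments, which limits any statement on them.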

Other observations

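Further epithelial targets of IL-17 and IL-22 lay lower in the Zfp90ΔIEC mice without overlap and short of the threshold, and they were chosen after their values were seen. *Duoxa2*, the maturation factor of *Duox2*, was at 18.3 ± 4.80 and 3.82 ± 2.20 FPKM (SD, n = 3 each; difference -2.07, adjusted p = 0.0664 from limma). *Nox1*, an epithelial NADPH oxidase, was at 14.8 ± 0.377 and 8.85 ± 1.17 FPKM (-0.68, adjusted p = 0.0593). *Il1rn*, the antagonist of the interleukin 1 receptor, was at 6.68 ± 0.280 and 4.06 ± 0.579 FPKM (-0.61, adjusted p = 0.0664), and *Muc1*, a mucin of the cell membrane, at 3.15 ± 0.383 and 1.58 ± 0.493 FPKM (-0.70, adjusted p = 0.109). Among the adaptors, and chosen in the same way, *Traf3ip2*, which encodes Act1, was at 10.9 ± 0.457 and 9.38 ± 0.874 FPKM (-0.20, adjusted p = 0.313), also without overlap. *Areg*, the target that encodes the growth factor amphiregulin, was at 146 ± 17.7 and 148 ± 13.5 FPKM (0.02, adjusted p = 0.943), with overlap. Of the 25 other epithelial targets tested, 5 had a difference above 0, *Areg* among them.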
